A study of Mus musculus with 6 samples.

Results

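The miRNAs described here are miR-23a, miR-27a, miR-23b, miR-27b and miR-24, 5 of the 611 mouse miRNAs on the array, taken by the names the array design gives them: mmu-miR-23a, mmu-miR-27a, mmu-miR-23b, mmu-miR-27b and mmu-miR-24. They are the guide strands (the arm of a hairpin that is loaded into Argonaute) of 2 paralogous gene clusters. KO macrophages came from MxCre-RBP-Jf/f mice and control macrophages from MxCre-RBP-Jf/+ mice, which the sample titles call WT although they carry 1 floxed allele and the transgene. All animals were female C57BL/6 mice given poly(I)-poly(C), and all bone-marrow-derived macrophages (BMDMs) were treated with lipopolysaccharide (LPS), a bacterial product that activates macrophages, for 24 h. RBP-J is the DNA-binding partner of activated Notch, and the series asks which miRNAs act downstream of Notch in macrophages. There were 3 KO and 3 control samples, each on its own 1-colour array. Mx-driven Cre answers to interferon in many cell types, so the deletion was not limited to macrophages, and the arrays carry no probe for Rbpj that would check it. The age of the animals and whether replicates were separate animals are not given in the sources used here, so p-values measure only the spread between these samples.

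In each cluster the 3 hairpins are cut from 1 primary transcript, after which Drosha, Dicer and Argonaute set the level of each mature miRNA separately. The miR-23a cluster is switched on by PU.1 in mouse myeloid progenitors. miR-23b dampens IL-17, TNF and IL-1 signalling in mouse, miR-27b lowers PPARγ mRNA in LPS-treated human macrophages, and miR-24 has been reported to restrain cytokine output of activated macrophages.

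The mature sequences show how alike some of the members are. They are given 5′ to 3′ from RefSeq (GRCm38.p6), where 4 of the 5 members were matched, with the seed (bases 2 to 8, which pair with the target) in capitals. miR-23b-3p is the other member.
miR-23a-3p: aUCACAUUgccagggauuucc
miR-27a-3p: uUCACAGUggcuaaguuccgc
miR-27b-3p: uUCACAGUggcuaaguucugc
miR-24-3p: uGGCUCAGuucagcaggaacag

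The miR-23a cluster (Mir23a, Mir27a, Mir24-2) spans 404 bp on the plus strand of chromosome 8, from 84208518 to 84208921, between protein-coding genes, with Mir181c and Mir181d as neighbouring miRNA genes. The miR-23b cluster (Mir23b, Mir27b, Mir24-1) spans 792 bp on the plus strand of chromosome 13, from 63300484 to 63301275, inside the protein-coding gene Aopep. miR-27a and miR-27b share their seed and differ by 1 substitution of 21 bases, C19U, counted from 1 at the 5′ end of miR-27a. miR-23a and miR-23b are likewise near-identical. Hybridisation of one paralog to the other's probe was not tested, so an a and a b signal may not be independent measurements. miR-24-3p has the same sequence in both clusters, so its signal is the sum of 2 genes and enters the comparisons of both.

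The cultures carried macrophage miRNAs and none of the endothelial or stromal markers listed; the clusters are also known from endothelial cells. All 6 macrophage or myeloid markers (miR-223, miR-142-3p, miR-142-5p, miR-155, miR-146a, miR-21) were well above background on all 6 arrays. Their summed scaled level ran from 127 to 152 in KO and from 125 to 150 in control samples. miR-21 made up most of this sum, at a mean log2 scaled level of 6.93 in KO and 6.85 in control samples. Among the others, miR-223 stood at 2.68 in KO against 2.90 in control and miR-155 at 2.26 against 2.29. miR-142-3p (1.83 against 1.65), miR-146a (1.85 against 1.66) and miR-142-5p (-3.11 against -3.30) were higher in KO. The sum is therefore no measure of macrophage content. Of 2 endothelial (miR-126-3p, miR-126-5p) and 5 stromal markers (miR-143, miR-145, miR-199a-3p, miR-199a-5p, miR-214), 0 were detected on any array. None of the epithelial, erythroid or platelet, muscle, and neural or liver markers was detected, and of 2 lymphoid markers miR-181b was detected and miR-150 was not. Arrays differed in brightness: the 75th percentile signal, by which each array was scaled, was 227, 186 and 226 intensity units in KO replicates 1, 2 and 3 and 288, 243 and 352 in control replicates 1, 2 and 3, with no overlap. KO replicate 2 stood apart from the other arrays on the first principal component over the tested miRNAs, and control replicate 1 on the second. KO and control arrays also lay in different rows of the slide, so slide row and genotype cannot be told apart. These are bulk samples, in which fewer cells of a type and less RNA per cell cannot be told apart.

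All 5 members were well above background on every array, and none of their 600 spots was saturated. Each was read by 2 probes of 10 spots each, and the spots of a probe on 1 array had a coefficient of variation of 1.02% to 5.70% (median 2.65%). The 2 probes of a member differed in brightness but kept nearly the same ratio on all arrays. That ratio ran from 3.01 to 3.15 for miR-23a, from 2.54 to 2.87 for miR-27a, from 3.08 to 3.19 for miR-23b, from 4.56 to 4.82 for miR-27b and from 1.25 to 1.35 for miR-24. The SD of its log2 over the 6 arrays was lowest for miR-23b, at 0.02, and highest for miR-27a, at 0.06. Because 2 probes of the same RNA can differ this much in brightness, the signal of one miRNA is not set against that of another as an amount.

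Before scaling, miR-23a, read below by its brighter probe, gave 1680, 1630 and 1390 intensity units in KO replicates 1, 2 and 3, against 2506, 2230 and 2479 in control replicates 1, 2 and 3. miR-23b gave 1222, 1158 and 1002 units in KO, against 1874, 1642 and 1981 in control. miR-24 gave 1684, 1629 and 1313 units in KO, against 2085, 2025 and 2450 in control. For these miRNAs every KO array lay under every control array.

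The miR-27 pair was less even among the controls. miR-27a gave 634, 709 and 664 units in KO, against 574, 1193 and 1054 in control, so control replicate 1 lay under all 3 KO arrays. miR-27b gave 658, 691 and 630 units in KO, against 725, 1175 and 1319 in control, with control replicate 1 again the dimmest control but above every KO array. Unscaled KO signal lay under every control for 4 of the 5 members, beside 27.4% of the 135 tested miRNAs and 14 of the 34 brightest, to which all 5 members belong. The whole arrays were dimmer in KO by the brightness values above, and the part of that in these differences was not tested.

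**Figure D1:**
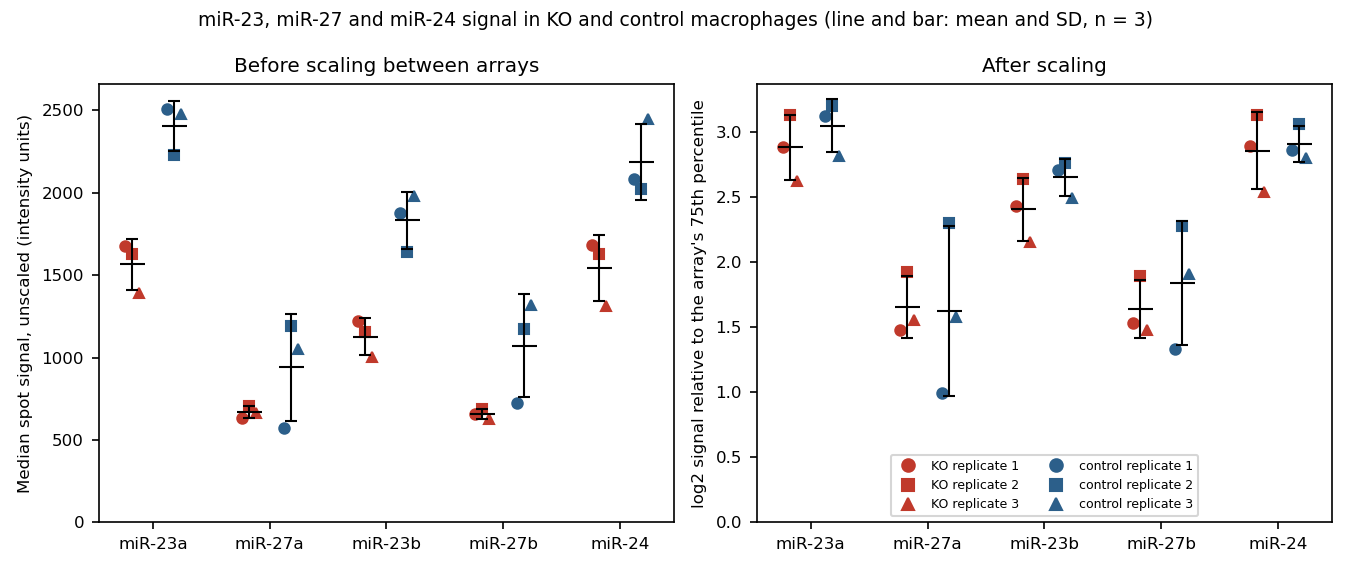
Signal of each member by array, unscaled in intensity units (left) and as log2 relative to the array's 75th percentile (right); symbols are replicates, lines and bars are mean and SD of 3 arrays, red KO and blue control. Before scaling the KO arrays lie under the controls for all but miR-27a; after scaling the genotypes overlap for all 5, and control replicate 1 is lowest for miR-27a and miR-27b.

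After scaling, no member passed the test between genotypes. Levels here and below are log2 signal relative to the array's 75th percentile over probes detected on all arrays. miR-23a stood at 2.89, 3.13 and 2.62 in KO replicates 1, 2 and 3 and at 3.12, 3.20 and 2.82 in control replicates 1, 2 and 3. Its difference, KO minus control, was -0.17 (SE 0.19, 95% interval -0.61 to 0.28, limma adjusted p = 0.748). The groups overlapped, with 1 of 3 KO arrays under every control.

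miR-23b stood at 2.43, 2.64 and 2.15 in KO and at 2.70, 2.76 and 2.49 in control. Its difference of -0.25 (SE 0.18, interval -0.66 to 0.17, limma adjusted p = 0.637) was the most negative of the 5, with 2 of 3 KO arrays under every control. KO replicate 2 was the one inside the control range.

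miR-24, the shared product, stood at 2.89, 3.13 and 2.54 in KO and at 2.86, 3.06 and 2.80 in control. The difference was -0.05 (SE 0.19, interval -0.49 to 0.39, limma adjusted p = 0.925), and the KO arrays lay on both sides of the control range. Without KO replicate 3 it was 0.10 and without control replicate 2 it was 0.03. In the authors' series matrix, miR-24 had the same value, 11.08 on the log2 scale, in all 6 samples. The columns of that matrix share an upper quartile of 2.71 and a maximum of 14.74 and have medians of 0 to 0.0288. Exact values recur in it, such as 10.81 for miR-23a in KO replicates 1 and 2 and control replicate 2. The equal miR-24 values are therefore not read as a constant level.

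miR-27a stood at 1.48, 1.93 and 1.56 in KO and at 0.99, 2.30 and 1.58 in control. Its difference of 0.03 (SE 0.31, interval -0.69 to 0.75, limma adjusted p = 0.977) turned with single arrays. Without control replicate 1 it was -0.29 and without KO replicate 2 it was -0.11, while without control replicate 2 it was 0.37. Its direction also turned with the scaling, to -0.43 with none between arrays and -0.14 with all probes behind the percentile.

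miR-27b stood at 1.53, 1.89 and 1.48 in KO and at 1.33, 2.28 and 1.91 in control. The difference was -0.20 (SE 0.25, interval -0.78 to 0.38, limma adjusted p = 0.748). Without control replicate 1 it was -0.45, and without control replicate 2 it was 0.02. On control arrays the SD was 0.65 for miR-27a and 0.47 for miR-27b, while on KO arrays it was 0.24 and 0.22, a difference in spread that was not tested.

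Of the 5 members 0 passed an adjusted p of 0.05, as did 0 of 135 miRNAs tested (0.0%) in limma. With this scaling and without adjustment, 6 miRNAs (4.44%) had p under 0.05, and 0 of these were members. The groups did not overlap for 0 of 5 members, beside 10.4% of all tested miRNAs in either direction and 2.96% with KO lower. As scaled, 4 of 5 members had a lower mean in KO, beside 28.1% of all tested miRNAs. That share moved with the processing. It was 17.0% with normexp background correction (5 members lower), 50.4% with quantile scaling (4 members) and 89.6% with no scaling (5 members). In the main scaling the median difference was -0.17 over the 5 members and 0.11 over all 135. Relative to that median miRNA all 5 lay lower, miR-23a at -0.28, miR-23b at -0.36, miR-27b at -0.31, miR-24 at -0.16 and miR-27a at -0.08. This count has 49.6% of all miRNAs as its background by construction. Of the 34 brightest miRNAs, the 5 members among them, 22 lay under the median miRNA, and their median difference was 0.04. The part of signal level in the members' position was not tested. Control replicate 1 and KO replicate 2 stood apart on components of these same values. Without both, the differences relative to the median miRNA were -0.35 for miR-23a, -0.43 for miR-23b and -0.31 for miR-24. They were -0.52 for miR-27a and -0.68 for miR-27b. Control replicate 1 was the lowest control for the miR-27 pair, and KO replicate 2 the highest KO array for all 5 members. Leaving both out thus lowers the miR-27 differences by construction. Within slide column 1 (replicates 1 and 2) the differences were -0.15 for miR-23a, -0.20 for miR-23b, 0.05 for miR-24, 0.06 for miR-27a and -0.09 for miR-27b, and in column 2 (replicates 3) they were -0.19, -0.34, -0.26, -0.02 and -0.42 in the same order.

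**Figure D2:**
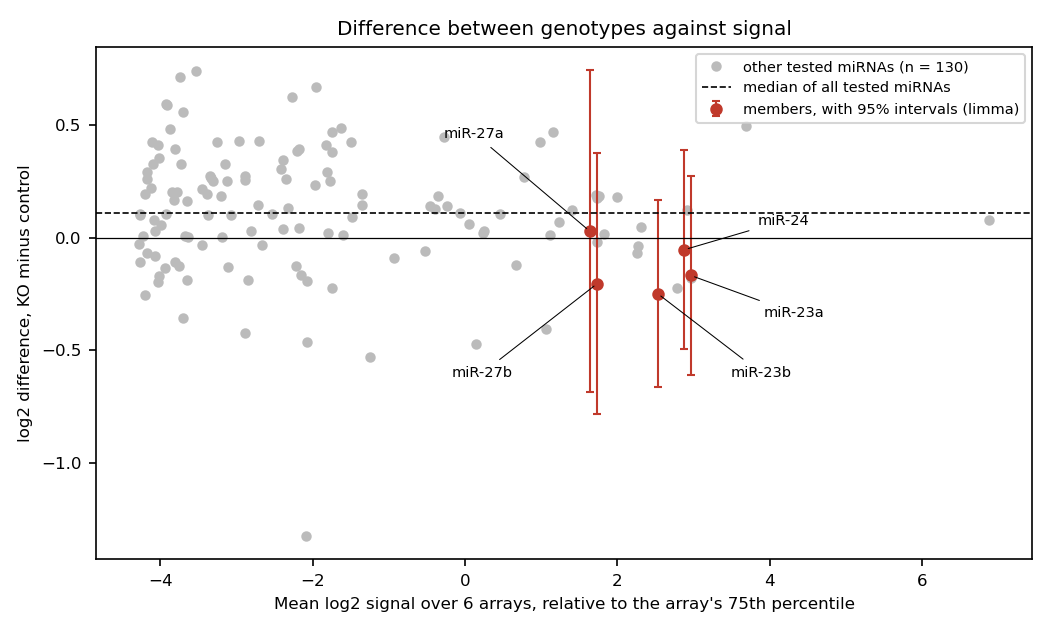
Difference between genotypes (log2, KO minus control) against mean signal for the 135 tested miRNAs; red points are the 5 members with 95% limma intervals, grey points the other 130, and the dashed line is the median of all. All 5 members lie under the dashed line on the bright side, and every interval crosses 0.

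Ratios of 2 members on the same array do not change when each array is scaled by 1 factor, though they do with quantile scaling, and they follow the balance between paralogs and within a cluster. They are ratios of probe signals, not of molecules, and only their change between arrays is meaningful. For each of 8 ratios the genotypes were compared by an exact permutation test, two-sided, whose p cannot go below 0.1 with 3 against 3 arrays.

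The miR-23a over miR-23b ratio was nearly constant. It was 1.37, 1.41 and 1.39 in KO replicates 1, 2 and 3 and 1.34, 1.36 and 1.25 in control replicates 1, 2 and 3. Every KO array lay above every control, with means of 1.39 ± 0.017 and 1.32 ± 0.056 (SD, n = 3 each). The log2 difference was 0.08 (exact permutation p = 0.1, adjusted p = 0.4 over the 8 ratios). With the other probes of either miRNA it was 0.06 to 0.08 and in the series matrix 0.22, but the groups stayed apart in only 1 of 4 probe combinations. Control replicate 3 was the low array, and without it the difference was 0.05.

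The miR-27a over miR-27b ratio varied more. It was 0.963, 1.03 and 1.05 in KO and 0.791, 1.02 and 0.799 in control, where control replicate 2 fell among the KO arrays. The log2 difference was 0.23, from 0.02 ± 0.066 in KO and -0.21 ± 0.20 in control (SD, n = 3 each; exact permutation p = 0.2, adjusted p = 0.4). Without control replicate 2 it was 0.35. In both a over b ratios the KO mean was higher than the control mean, and with 3 against 3 arrays the test could call neither.

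Within the miR-23a cluster, miR-27a over miR-23a was 0.377, 0.435 and 0.477 in KO and 0.229, 0.535 and 0.425 in control. The controls spanned the KO arrays on both sides (log2 difference 0.20, exact permutation p = 0.8, adjusted p = 0.914), and without control replicate 1 the difference turned to -0.16. miR-24 over miR-23a was 1.00, 0.999 and 0.944 in KO and 0.832, 0.908 and 0.988 in control, a log2 difference of 0.11 (exact permutation p = 0.2, adjusted p = 0.4). miR-24 over miR-27a differed by -0.08 (exact permutation p = 0.8, adjusted p = 0.914) and turned to 0.21 without control replicate 1 and to 0.03 without KO replicate 3.

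Within the miR-23b cluster, miR-24 over miR-23b was 1.38, 1.41 and 1.31 in KO and 1.11, 1.23 and 1.24 in control, with every KO array above every control. The log2 difference was 0.19 (exact permutation p = 0.1, adjusted p = 0.4), and the groups stayed apart in 4 of 4 probe combinations. They overlapped in the series matrix, but miR-24 had the same value in every sample there, so that ratio only mirrored miR-23b. miR-27b over miR-23b was 0.538, 0.597 and 0.629 in KO and 0.387, 0.715 and 0.666 in control. Its log2 difference was 0.04 (exact permutation p = 1, adjusted p = 1), and it turned to -0.23 without control replicate 1 and to -0.0059 without KO replicate 3. miR-24 over miR-27b differed by 0.15 (exact permutation p = 0.7, adjusted p = 0.914), and by 0.38 without control replicate 1 and 0.0092 without control replicate 2. The groups did not overlap for 2 of the 8 ratios, both with miR-23b below the line, beside 14.4% of the 5995 ratios that the 110 miRNAs detected on all arrays can form.

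**Figure D3:**
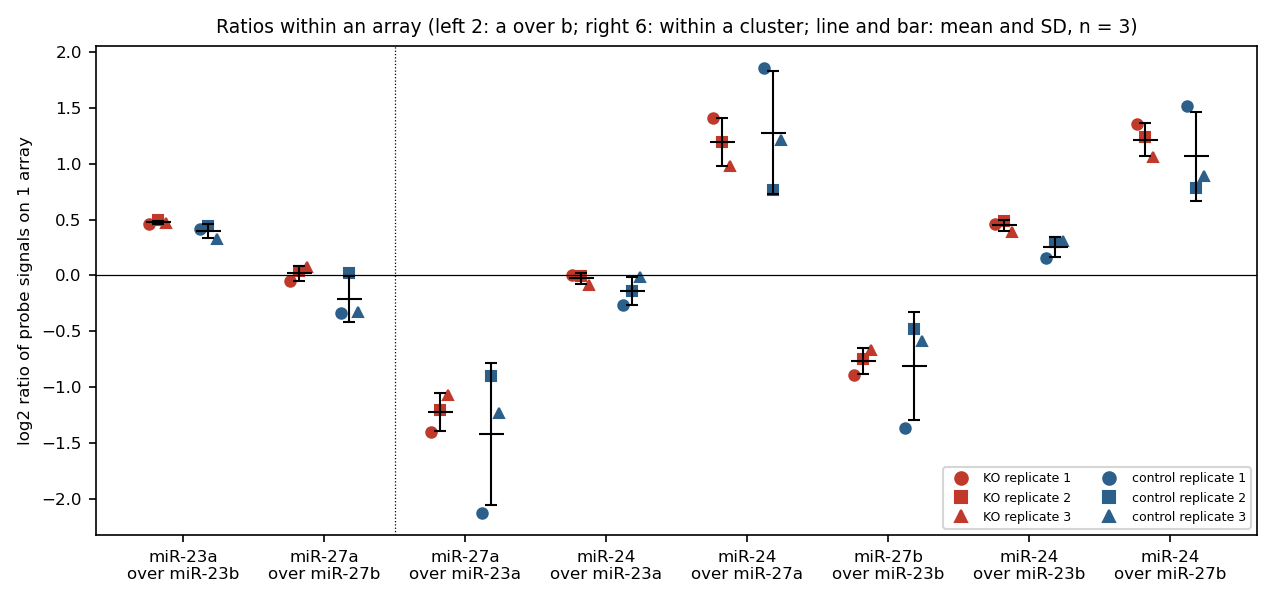
Log2 ratio of probe signals on each array for the 8 ratios (2 of a over b on the left, 6 within a cluster on the right); symbols are replicates, red KO and blue control, and lines and bars are mean and SD of 3 arrays. Ratios without miR-27 are tight, and ratios with miR-27 spread widely over the control arrays, with control replicate 1 at one end of each.

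Across arrays miR-23a, miR-23b and miR-24 kept close to each other, and the miR-27 pair moved apart from them. The log2 ratio of miR-23a to miR-23b, from different chromosomes, had an SD of 0.06 over the 6 arrays, and 0.167% of the 5995 pairs had a smaller one. Those pairs include dim miRNAs, while the 5 members are among the 34 brightest, and no share among pairs of like brightness was computed. Hybridisation of miR-23a and miR-23b to each other's probes was not tested, so the small SD may not come from independent signals. miR-24 kept an SD of 0.10 with miR-23a and 0.12 with miR-23b. The SD was 0.19 for miR-27a with miR-27b. With the miR-23 of its own cluster each miR-27 lay in the middle of all pairs: miR-27a with miR-23a had 0.43 and miR-27b with miR-23b 0.32, beside a median of 0.35 over all pairs. The distance of the miR-27 pair from the miR-23 pair rests largely on control replicate 1. There the mean of the miR-27 pair lay 1.75 below that of the miR-23 pair, against 0.69 to 1.15 below it on the other 5 arrays. Without control replicate 1 the SD was 0.19 for miR-27a with miR-23a and 0.16 for miR-27b with miR-23b, beside 0.16 for miR-27a with miR-27b, 0.07 for miR-23a with miR-23b and a median of 0.29 over all pairs. With miR-24 the SD without control replicate 1 was 0.25 for miR-27a and 0.24 for miR-27b, from 0.38 and 0.28 over all arrays. Leaving out control replicate 3 brought miR-23a with miR-23b to 0.03. In the authors' series matrix the order differed: miR-27a with miR-27b had 0.30, above miR-27b with miR-23b at 0.27, and miR-23a with miR-23b had 0.16. On control replicate 1 both probes of both miR-27 members gave their lowest scaled value of the 6 arrays.

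**Figure D4:**
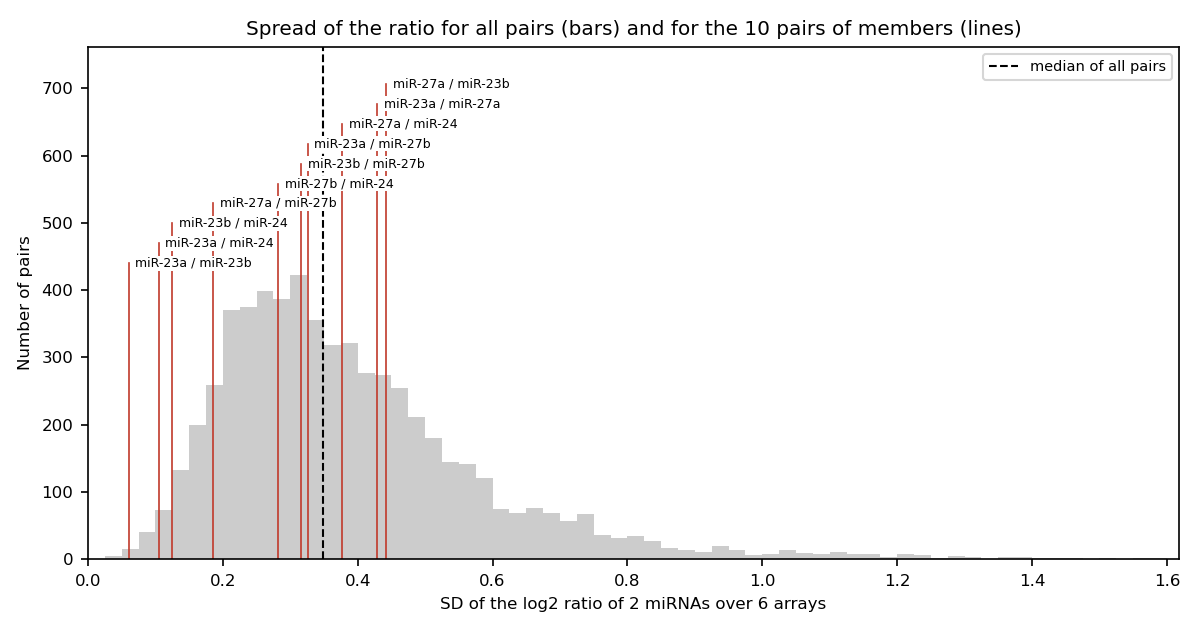
SD over 6 arrays of the log2 ratio of 2 miRNAs: grey bars count all 5995 pairs of miRNAs detected on every array, red lines mark the 10 pairs of members, and the dashed line is the median of all pairs. The 3 pairs among miR-23a, miR-23b and miR-24 lie between 0.06 and 0.12, miR-27a with miR-27b at 0.19, and the 6 pairs of a miR-27 with another member between 0.28 and 0.44.

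The passenger strands, the arms that are mostly discarded, differ in sequence between the 2 miR-24 genes, where the guide does not. Of 6 listed, 4 were on the array and 2, those of miR-24, were detected. They share their first 16 bases, so their probes may see both. Capitals again mark the seed.
miR-24-1-5p (array name miR-24-1*, chromosome 13): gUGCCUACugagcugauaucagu
miR-24-2-5p (array name miR-24-2*, chromosome 8): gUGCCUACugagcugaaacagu

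miR-24-1* gave 12.4, 11.5 and 13.1 intensity units in KO replicates 1, 2 and 3, against 11.3, 21.9 and 21.9 in control replicates 1, 2 and 3. These are values of its brighter probe, and its dimmer probe had no unflagged spot well above background on any array. miR-24-2* gave 12.5, 13.5 and 14.7 units in KO, against 10.7, 18.8 and 21.1 in control. Control replicate 1 was the dimmest array for both and the one where neither was well above background, while the other controls were brighter than every KO array. The scaled log2 differences were -0.17 (SE 0.23) for miR-24-1* and 0.06 (SE 0.21) for miR-24-2*, and neither passed in limma. They turned to 0.06 without control replicate 2 for miR-24-1*, and for miR-24-2* to -0.09 without control replicate 1 and -0.04 without KO replicate 2. miR-24-1* at -0.37 without control replicate 1 was not called either. At the 5th-percentile floor of -4.32 used for dim signals, both have little room to fall. miR-27a* and miR-27b* were not above background on any array.

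miR-181c and miR-181d, from the genes neighbouring the miR-23a cluster, were not well above background on any of the 6 arrays, while miR-23a was bright on all. For miR-181c the brighter probe gave 3.90, 4.22 and 1.95 units in KO and 5.54, 3.73 and 6.56 in control.

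**Figure D5:**
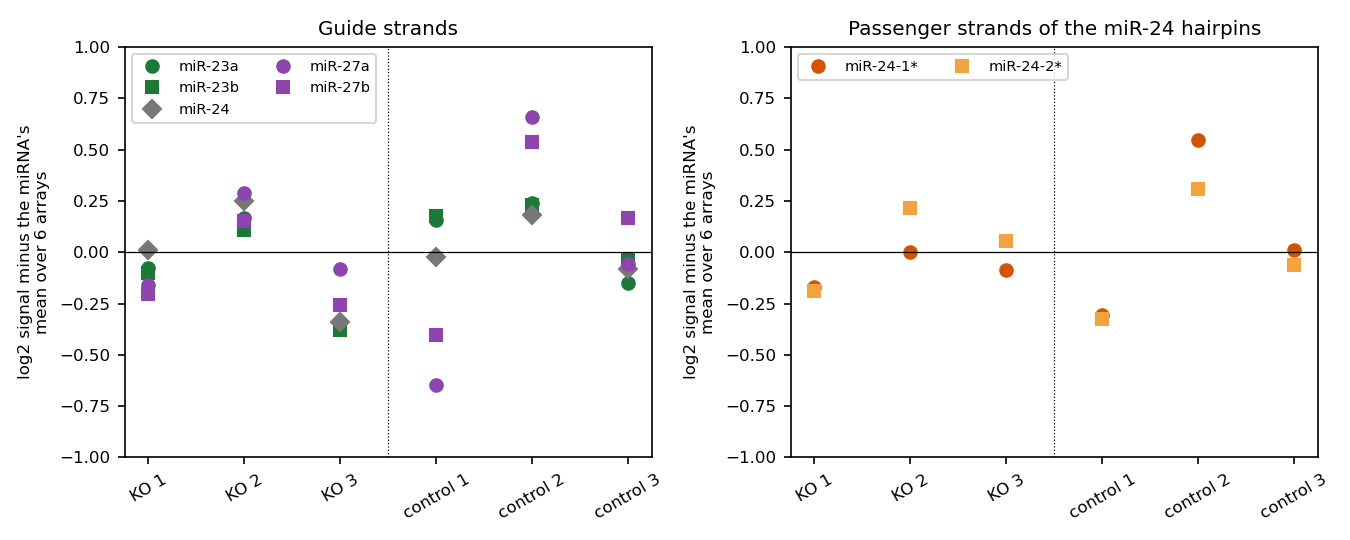
Log2 scaled signal on each array minus the miRNA's own mean over the 6 arrays, for the 5 guide strands (left) and the passenger strands of the miR-24 hairpins (right), KO arrays left of the dotted line and control arrays right of it. miR-23a, miR-23b and miR-24 move together; on control replicate 1 both miR-27 members and both passenger strands are low (the passenger strands at the floor) while miR-23a and miR-23b are high.

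The tested miRNAs most like the mean of the 5 members over the 6 arrays were miR-24-1*, miR-146b, miR-324-5p, miR-29c and miR-221, by Pearson r of 0.83, 0.82, 0.81, 0.79 and 0.78 as a description. All values share the same array scaling. Their differences, KO minus control, were -0.17 for miR-24-1*, -0.12 for miR-146b, 0.0063 for miR-324-5p, 0.09 for miR-29c and -0.40 for miR-221.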

How the data were processed

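RNA of 6 BMDM samples, 3 KO and 3 control, was labelled with Cy3 and hybridised to 1-colour Agilent mouse miRNA arrays of design 021828, all on 1 slide. The authors' spot intensity values are background-subtracted and detrended; per the file headers the software was Feature Extraction 10.5.1.1, while the submitters' processing notes name version 9.1. The deposited gene-level tables hold total intensity per miRNA. The deposited series matrix holds log2 values of unstated processing. All its columns have the same upper quartile and the same maximum (14.74), and exact values recur between columns.

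The median intensity over unflagged spots was taken per probe, divided by the array's 75th percentile over 200 probes well above background on all arrays (at least 50% of spots), floored at the 5th percentile of detected signals (-4.32) and log2 transformed. A miRNA took its brightest probe and was tested when detected on at least 3 arrays (135 of 611). Genotypes were compared with limma 3.58.1 in R 4.3.3, with Benjamini-Hochberg adjustment over all 135. The procedure was also run on simulated data with independent noise for each miRNA and changes larger than any member's difference. That run does not show how it performs on changes of the members' size or on variation shared by a whole array. Exact permutation tests used scipy 1.17.1. Arrays have no read depth, and their number limits precision.

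The members and lists were chosen with earlier results of these data known. Named miRNAs were the members, their passenger strands, Mir181 neighbours and the 5 miRNAs most like the members' mean. RefSeq coordinates are of GRCm38.p6; the array files name no build. Replicates 1 and 2 lay in slide column 1 and replicates 3 in column 2. Deviations from group means of same-numbered samples correlated at 0.17, -0.07 and 0.37 for replicates 1, 2 and 3 across miRNAs. Those of unlike-numbered samples correlated at -0.29 to 0.16. These values do not settle whether same-numbered samples are pairs. The main test took no pairs, and the replicate block was run as an alternative. Normexp, an alternative, was run on median rather than mean spot signal. Other alternatives changed scaling, probe choice, floor, block and arrays left out. 0 columns belonged to no sample.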

Additional observations from a re-analysis of the deposited data

How the results depend on the processing

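Under 24 alternatives the number of miRNAs passing limma's adjusted p of 0.05 stayed 0, with a smallest adjusted p of 0.0699 (normexp). With the replicate block the smallest was 0.485, and 13 miRNAs had an unadjusted p under 0.05. With no scaling, where KO arrays were dimmer, 26 of 135 had one, miR-23a, miR-23b, miR-27b and miR-24 among them. With normexp 32 had one, with no member among them. With the median set to 0, 8 had one, miR-23b among them. Without both control replicate 1 and KO replicate 2, 11 had one, miR-27b among them. miR-23a and miR-23b kept their direction in all 25 alternatives, without single arrays at -0.29 to -0.04 and -0.36 to -0.12. The floor at the lowest detected signal, the replicate and slide column blocks, the detection filters and limma's trend and robust options left both differences unchanged. Their direction under these was fixed in advance. The median of the 5 members was -0.62 with no scaling and -0.29 to 0.02 without single arrays; relative to the median miRNA it was -0.065 in the series matrix and -0.39 to -0.13 without single arrays. miR-27a turned to -0.029 with normexp, -0.14 with all probes behind the percentile, -0.43 with no scaling, -0.12 with the median set to 0, -0.0095 with averaged probes, -0.049 with the second probe, -0.11 with gene totals, -0.065 in the series matrix, -0.025 in slide column 2 and -0.42 without control replicate 1 and KO replicate 2 (without single arrays -0.29 to 0.37). miR-27b ran from -0.45 to 0.016 without single arrays and miR-24 from -0.19 to 0.10, with 0.051 in slide column 1. miR-24-1* turned to 0.28 with normexp (without single arrays -0.37 to 0.061). miR-24-2* turned to -0.16 with all probes, -0.33 with no scaling, -0.22 with quantile scaling, -0.094 with the median set to 0, -0.027 with mean spots, -0.12 in the series matrix and -0.19 without both arrays (without single arrays -0.094 to 0.22).

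Of the ratios, miR-27a over miR-23a turned to -0.021 in the series matrix and -0.17 without both arrays (without single arrays -0.16 to 0.46). miR-24 over miR-27a turned to 0.034 with the second probe, 0.065 in the series matrix and 0.21 without both arrays (-0.34 to 0.21). Because miR-24 had the same value in every sample of the series matrix, all miR-24 ratios there only mirror the other miRNA. miR-27b over miR-23b turned to -0.045 in the series matrix, -0.082 in slide column 2 and -0.25 without both arrays (-0.23 to 0.21). miR-24 over miR-23a was -0.065 in slide column 2 (0.05 to 0.18 without single arrays). 4 ratios kept their sign in all 21 alternatives: miR-23a over miR-23b at 0.05 to 0.10 without single arrays and 0.05 to 0.22 otherwise (0.22 in the series matrix), miR-27a over miR-27b at 0.17 to 0.35 and 0.15 to 0.40, miR-24 over miR-23b at 0.14 to 0.22 and 0.08 to 0.26, and miR-24 over miR-27b at 0.0092 to 0.38 and 0.13 to 0.37. Alternatives that only rescale each array left every ratio difference as it was: all probes behind the percentile, no scaling and the median set to 0. The floor at the lowest detected signal and the replicate block did so too. The sign under all of these was fixed in advance. The cause of the turns in sign was not tested. Leave-one-out SDs of the ratios and the other probe combinations were chosen after seeing the data.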

Other observations

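Set apart from the mean of all 5 members, the miR-23 and the miR-27 pair each had their own closest miRNAs, a comparison chosen after the values were seen. The mean of miR-23a and miR-23b was most like miR-221, miR-22 and miR-16 over the 6 arrays (Pearson r of 0.97, 0.94 and 0.90). The mean of miR-27a and miR-27b was most like miR-15a, miR-24-1* and miR-24-2* (0.97, 0.94 and 0.91). On control replicate 1, where the miR-27 pair was lowest, both passenger strands were at the floor of -4.32 and not well above background. These r values are the highest of many over 6 arrays, so they are a description and no test. On control replicate 1 miR-27a was the 7th lowest and miR-27b the 17th lowest of 135 miRNAs relative to their own means over the other arrays, while on control replicate 2 miR-27a was the highest and miR-27b ranked 133.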
